A study of Homo sapiens with 6 samples.

Results

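The genes described here are 44 human genes of the NRF2 stress response and of the aldo-keto reductase family, among them AKR1C1, AKR1C2, AKR1C3 and AKR1C4. They were chosen by name, with results of the same comparison of cell lines known, among them that AKR1C1 had one of the largest rises. Their differences between the cell lines are therefore a description without a test. All 44 were found among the 24462 gene symbols of the count files.

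The libraries come from HCEC 1CT, a human colon epithelial cell line immortalised with telomerase and CDK4. The 3 libraries labelled 1CT_WT are wild type for APC and are called 1CT, and the 3 labelled APC KD carry a knockdown of APC and are called 1CT-A. APC is the tumour suppressor whose protein marks β-catenin for destruction and whose loss opens most colorectal tumours. Both lines were untreated and grew in the same medium with epidermal growth factor, hydrocortisone, insulin, transferrin, 2% serum and 5 nM sodium selenite, a source of selenium for enzymes such as thioredoxin reductase. 1CT-A was obtained as an established line, so the knockdown and the separate culture history of the 2 lines cannot be told apart.

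RNA was sequenced from the 3′ ends of transcripts (QuantSeq). The library totals ranged over 7788679 to 8452258 counts for 1CT and 11158108 to 12602988 for 1CT-A. Levels are given as CPM, counts scaled to a library total of 1000000, and 3 counts, the smallest level taken as visible, are 0.355 to 0.385 CPM in 1CT against 0.238 to 0.269 CPM in 1CT-A. APC itself had 49.3, 43.8 and 46.6 CPM in 1CT and 31.5, 30.0 and 34.4 CPM in 1CT-A, so its log2 fold change was -0.58 with a standard error of 0.09 (edgeR, adjusted p = 0.000176). The labelled epithelial origin was borne out only in part by marker genes. EPCAM and ELF3, and all 6 markers of colon epithelium examined (CDX1, CDX2, VIL1, LGR5, MUC2 and KRT20), stayed under 3 counts in all 6 libraries. The 7 epithelial markers together had 40.9 to 45.3 CPM in 1CT against 23.5 to 30.3 CPM in 1CT-A. The 3 with enough counts to be tested, CLDN7, KRT18 and KRT19, were all called lower, against 26.0% of all tested genes. KRT19 had 20, 27 and 34 counts in 1CT and 0 counts in every 1CT-A library. All 9 fibroblast and mesenchymal markers were detected, with a summed level of 4711 to 5755 CPM in 1CT against 4382 to 4696 CPM in 1CT-A. They went both ways, with 2 called higher and 4 lower: COL3A1 rose from a mean of 47.8 to 253 CPM (log2 fold change 2.37), while PDGFRB (-0.98) and THY1 (-0.91) fell (edgeR, adjusted p = 2.70e-07, 4.13e-05 and 2.37e-06). The 5 immune markers together had 12.6 to 15.0 CPM in 1CT against 9.13 to 10.4 CPM in 1CT-A, with PTPRC, CD3E and MS4A1 under 3 counts in all 6 libraries, and the 4 endothelial markers had at most 0.514 CPM. The part of these differences in the results on the 44 genes was not tested. In such bulk samples, fewer cells of a type and less RNA per cell cannot be told apart.

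NRF2, encoded by NFE2L2, is a transcription factor that is held in the cytoplasm and passed to degradation by the adaptor KEAP1. Oxidants and electrophiles modify KEAP1, upon which NRF2 accumulates, pairs with a small MAF protein such as MAFG and binds antioxidant response elements with the core TGACNNNGC, while BACH1 competes for the same sites. Its targets make glutathione and thioredoxin, supply NADPH, reduce quinones and carbonyls, break down heme, store iron and export conjugates. The AKR1C enzymes reduce steroids, prostaglandins and lipid aldehydes with NADPH and are among the genes that respond most to NRF2 in human cells.

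The antioxidant response element was searched as TGACNNNGC on either strand in RefSeq promoter windows (GRCh38.p14, 300 bases, from 250 bases before to 50 bases after a transcription start). Of the 44 genes, 34 had at least 1 window and 48 windows were found. Without a window were AKR1B10, CBR3, GSR, SLC7A11, PRDX1, HMOX1, FTH1, ABCC1, ABCC3 and TRIM16L. The core occurred in 14 of the 48 windows (29.2%) and in 4687 of all 35116 windows (13.3%). The 13 genes with a match were KEAP1, CBR1, EPHX1, PIR, GCLM, GPX2, GSTM1, GSTP1, MGST1, TXNRD1, PGD, ME1 and IDH1. A match of this core overlapped TGANTCA, the related element bound by AP-1 (searched on either strand), in 3 of the 48 windows (6.25%), those of PIR, GSTP1 and ME1, and in 0.561% of all windows. TGANTCA, overlapping or not, was found in 5 of the 48 windows (10.4%) and in 7.71% of all windows. The windows were counted without a test, and several genes have more than 1 window. The 4 promoters printed here show the element in genes whose values in the cell lines went different ways: GCLM, TXNRD1 and ME1 were higher in 1CT-A and GSTP1 was lower. Each is 260 bases of GRCh38.p14, from 250 bases before the start to 10 bases after it, with the 9 bases of the core in capitals (in GCLM and at the later place in TXNRD1 as its reverse complement). GCLM is chr1:93909421-93909680, minus strand. TXNRD1 is chr12:104215529-104215788, plus strand. ME1 is chr6:83431042-83431301, minus strand. GSTP1 is chr11:67583562-67583821, plus strand.
GCLM: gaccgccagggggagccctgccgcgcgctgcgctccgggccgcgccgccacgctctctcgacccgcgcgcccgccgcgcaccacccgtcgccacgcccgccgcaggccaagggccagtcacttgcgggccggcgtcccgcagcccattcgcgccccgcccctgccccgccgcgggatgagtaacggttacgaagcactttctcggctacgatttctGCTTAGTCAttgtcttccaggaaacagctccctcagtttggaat
TXNRD1: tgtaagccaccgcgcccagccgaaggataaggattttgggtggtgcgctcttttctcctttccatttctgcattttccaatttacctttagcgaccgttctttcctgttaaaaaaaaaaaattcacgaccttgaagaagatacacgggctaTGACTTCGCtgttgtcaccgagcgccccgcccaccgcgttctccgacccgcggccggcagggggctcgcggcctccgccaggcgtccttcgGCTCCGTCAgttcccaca
ME1: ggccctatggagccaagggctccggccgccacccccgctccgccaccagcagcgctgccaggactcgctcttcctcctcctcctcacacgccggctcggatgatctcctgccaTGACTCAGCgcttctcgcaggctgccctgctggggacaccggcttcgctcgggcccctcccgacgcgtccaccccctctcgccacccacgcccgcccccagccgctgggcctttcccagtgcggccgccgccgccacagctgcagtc
GSTP1: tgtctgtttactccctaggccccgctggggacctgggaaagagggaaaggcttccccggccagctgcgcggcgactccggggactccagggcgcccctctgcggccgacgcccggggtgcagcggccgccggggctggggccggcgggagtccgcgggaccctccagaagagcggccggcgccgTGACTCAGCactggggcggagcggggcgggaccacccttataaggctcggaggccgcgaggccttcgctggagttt

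The core begins 34 bases before the start in GCLM, 137 in ME1 and 66 in GSTP1. TXNRD1 holds a pair of cores, beginning 99 and 8 bases before the start. ME1 also holds a pair, and its later core begins at base 12 after the start, past the printed stretch. The AKR1C1, AKR1C2, AKR1C3 and AKR1C4 windows held no match of TGACNNNGC, nor did those of NQO1 and NFE2L2, which says only that these letters are not in these windows. The promoters of AKR1C1 (chr10:4963165-4963424, plus strand) and AKR1C2 (chr10:5003848-5004107, minus strand) are shown because the same genes were higher in 1CT-A and their sequences cannot be told apart over most of their length. Capitals mark the longest run shared by both, 245 bases, and over the 252 bases that align, 252 were identical.
AKR1C1: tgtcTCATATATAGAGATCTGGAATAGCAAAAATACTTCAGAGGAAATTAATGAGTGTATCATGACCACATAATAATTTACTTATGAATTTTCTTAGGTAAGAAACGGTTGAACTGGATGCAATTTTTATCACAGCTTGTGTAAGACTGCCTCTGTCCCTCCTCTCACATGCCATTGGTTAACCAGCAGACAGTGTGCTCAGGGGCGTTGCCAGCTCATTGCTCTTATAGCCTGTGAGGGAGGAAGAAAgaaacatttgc
AKR1C2: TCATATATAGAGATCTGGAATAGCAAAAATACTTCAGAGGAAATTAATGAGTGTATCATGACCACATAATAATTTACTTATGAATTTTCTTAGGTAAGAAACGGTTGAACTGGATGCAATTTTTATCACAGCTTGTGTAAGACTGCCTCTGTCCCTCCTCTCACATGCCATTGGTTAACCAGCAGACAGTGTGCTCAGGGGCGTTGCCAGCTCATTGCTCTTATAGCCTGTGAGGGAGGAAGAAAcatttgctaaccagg

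Of the 44 genes, 41 had enough counts for the fit across all genes, and GPX2, AKR1B10 and ABCC2 had not. AKR1C4 passed only through its counts in 1CT-A. Calls of higher or lower were made where the adjusted p of edgeR's quasi-likelihood fit over 12514 genes was under 0.05. By that rule 25 of the 41 were called higher, against 25.0% of all tested genes, and 5 were called lower, against 26.0%. In 27 of the 41 all 3 1CT-A libraries lay above all 3 1CT libraries in CPM, as they did for 31.8% of all tested genes, and in 5 all 3 lay below, as for 27.9%. Because the list was chosen with this comparison known, nothing is read from these counts. The median log2 fold change of the 41 was 0.43 and that of all tested genes was -0.01. A difference of at least 2-fold was seen upward in 9 of the 41 and downward in 2, while among all tested genes 510 were at least 2-fold higher and 1266 at least 2-fold lower.

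**Figure D1:**
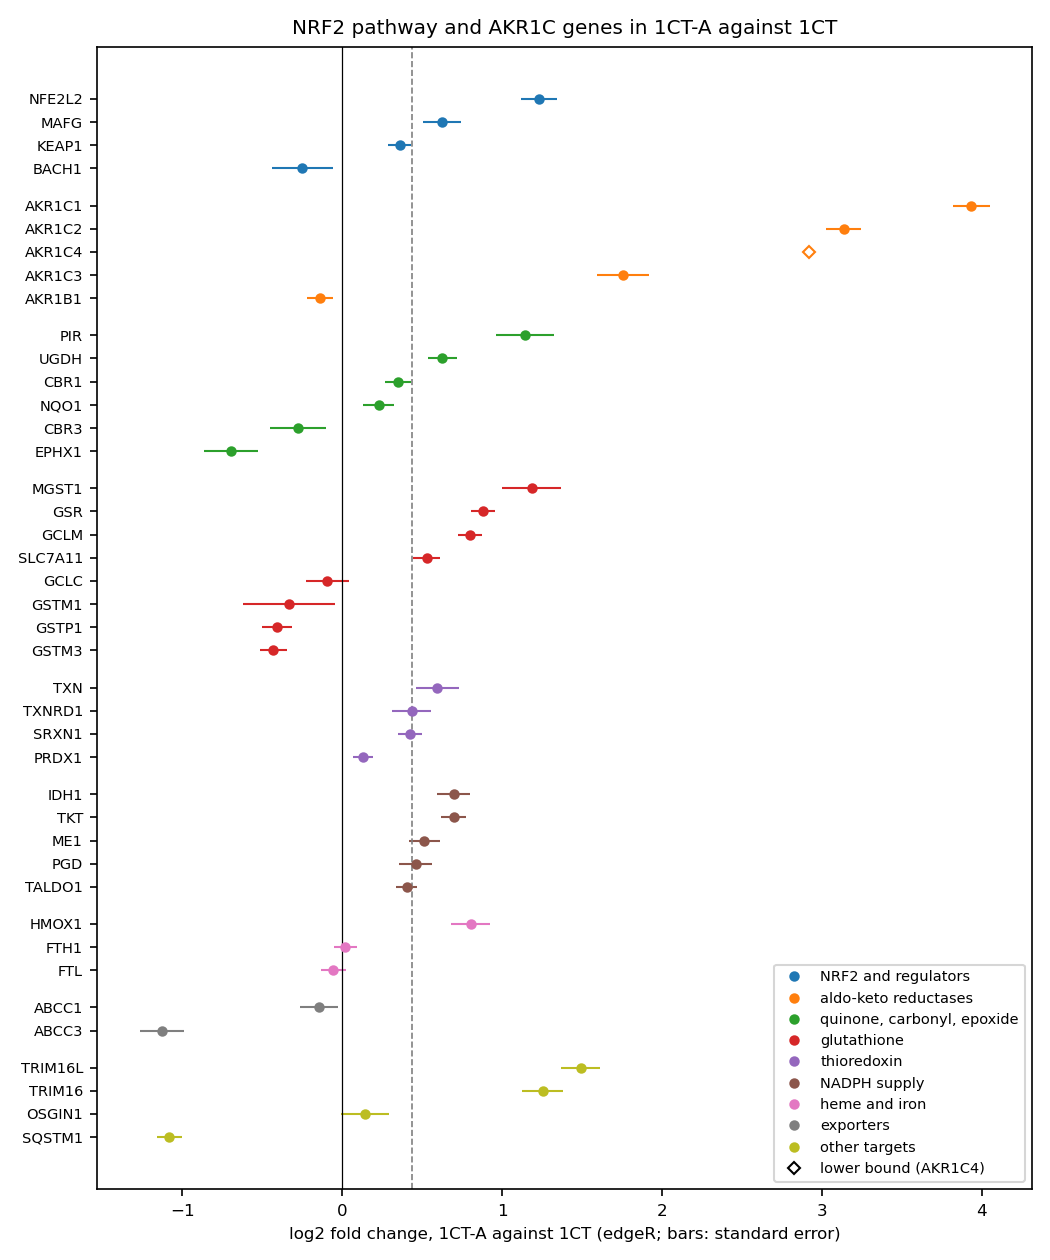
The x axis gives the log2 fold change, 1CT-A against 1CT (edgeR, bars are the standard error) for the 41 genes with enough counts, coloured by role, with the median of 0.43 as a dashed line. AKR1C1 and AKR1C2 lie furthest to the right at 3.94 and 3.14, AKR1C4 is drawn at its lower bound of 2.92 as an open diamond, and ABCC3 and SQSTM1 lie furthest to the left at -1.13 and -1.08.

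Among NRF2 and its regulators, NFE2L2 itself, KEAP1 and MAFG were higher in 1CT-A and BACH1 was not called. NFE2L2 had 56.2, 65.1 and 45.2 CPM in the 1CT libraries and 120, 141 and 141 CPM in the 1CT-A libraries, which is a log2 fold change of 1.23 ± 0.11 (± gives the standard error throughout). Every 1CT-A library thus held more NFE2L2 than the highest 1CT library. KEAP1, the adaptor that passes NRF2 to degradation, had 115, 107 and 116 CPM in 1CT and 151, 148 and 147 CPM in 1CT-A, a log2 fold change of 0.36 ± 0.07. MAFG, the small MAF partner of NRF2, had 55.0, 55.8 and 37.5 CPM in 1CT and 76.8, 80.6 and 78.0 CPM in 1CT-A, with a log2 fold change of 0.63 ± 0.12. For KEAP1 and MAFG too every 1CT-A library lay above every 1CT library, as for 31.8% of all tested genes. The third 1CT library was the lowest for MAFG as it was for NFE2L2. BACH1, the repressor that competes with NRF2 on its elements, had 8.52, 9.42 and 6.03 CPM in 1CT and 7.71, 6.14 and 6.90 CPM in 1CT-A. The lines overlapped for BACH1, and its log2 fold change of -0.25 ± 0.19 was not called.

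The 4 AKR1C genes had the highest fold changes of the 44 genes. AKR1C1, which inactivates progesterone by reducing it, had 39.0, 26.6 and 35.7 CPM in 1CT and 521, 542 and 530 CPM in 1CT-A. The lowest 1CT-A library was far above the highest 1CT library, and the log2 fold change of 3.94 ± 0.11, a fold of 15.3, ranked 18 among the rises of all 12514 genes. AKR1C2, which reduces dihydrotestosterone, had 29.9, 23.2 and 21.1 CPM in 1CT and 210, 239 and 223 CPM in 1CT-A, with a log2 fold change of 3.14 ± 0.11 and rank 33. AKR1C3, which makes testosterone from androstenedione and acts on prostaglandins, had 6.51, 4.95 and 4.75 CPM in 1CT and 16.9, 18.3 and 21.3 CPM in 1CT-A, with a log2 fold change of 1.76 ± 0.16. For these 3 genes every 1CT-A library lay above every 1CT library, as for 31.8% of all tested genes. AKR1C4, known chiefly from liver, where it takes part in bile acid synthesis, had 0, 2 and 1 counts across 1CT but 29, 34 and 35 across 1CT-A. Against the smallest visible level of 3 counts per library it was at least 7.58-fold higher in 1CT-A.

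The 4 AKR1C genes together had 75.5, 54.9 and 61.6 CPM in 1CT and 750, 802 and 777 CPM in 1CT-A. As 3′ reads count transcript ends and do not scale with transcript length, shares of this sum were taken from the counts without a length correction. AKR1C1 made up 48.4% to 57.9% of the family's counts in 1CT and 67.6% to 69.4% in 1CT-A, so the ranges did not meet. AKR1C2 took 34.2% to 42.2% in 1CT and 28.0% to 29.8% in 1CT-A, and AKR1C3 took 7.71% to 9.01% and 2.26% to 2.74%. The family's mix thus lay further toward AKR1C1 in every 1CT-A library. These shares and the single folds are uncertain, since the counting could have divided reads between the copies. Between annotated transcripts (GENCODE 44), AKR1C1 and AKR1C2 were identical at 97.2% of aligned positions, AKR1C1 and AKR1C3 at 90.3%, and AKR1C3 and AKR1C4 at 87%. Of the 50-base stretches in the last 500 bases, where 3′ reads fall, AKR1C2 shared 53.2% with AKR1C1, AKR1C3 shared 27.1% with AKR1C2, and AKR1C4 shared 6.43% with AKR1C2. AKR1C1 shared 0% of its own end with the other 3, and its annotated transcript of 6543 bases runs on past theirs. This 0% covers only the last 500 bases of that long transcript, so it does not show that AKR1C1 counts are free of shared reads. With the counts of all 4 added together as 1 gene, the log2 fold change was 3.56 ± 0.10, below that of AKR1C1 alone and above that of AKR1C3.

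**Figure D2:**
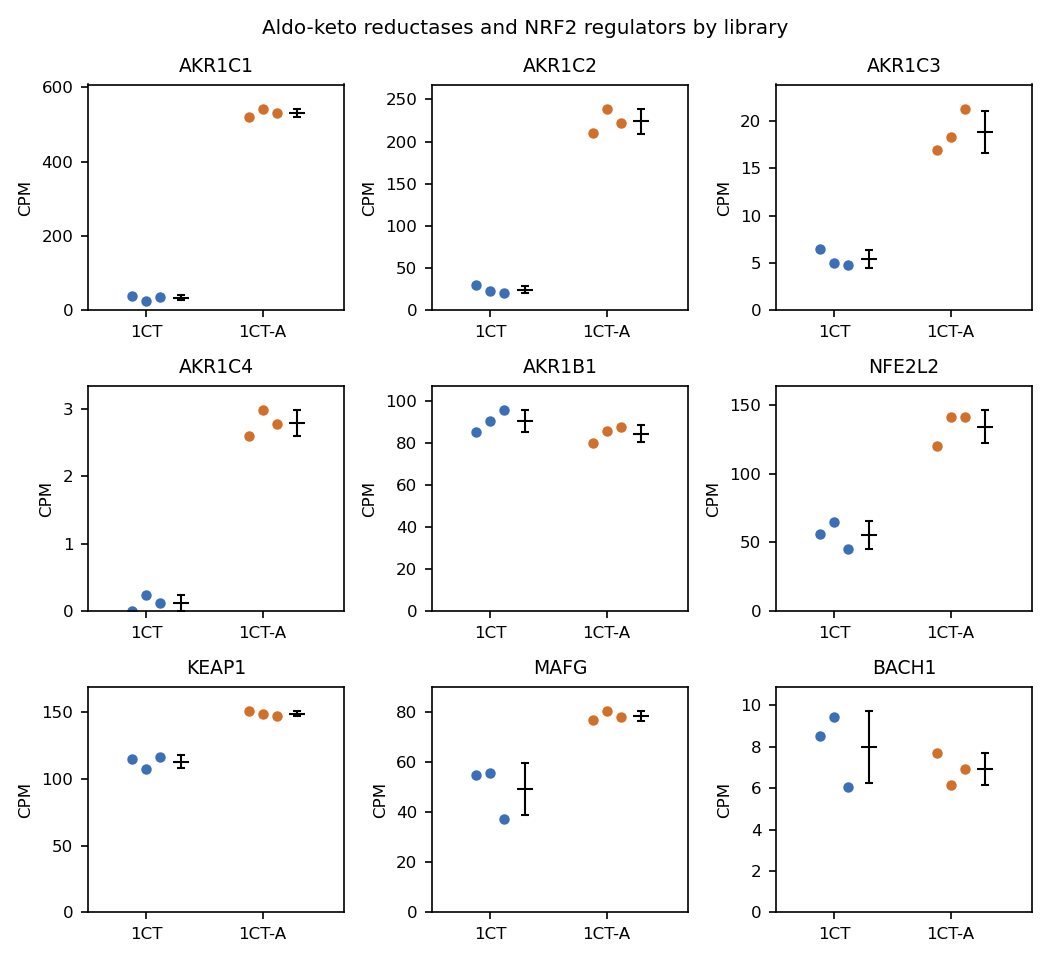
CPM on the y axis for each library (points) with mean and SD (bars), 3 libraries of 1CT and 3 of 1CT-A, for 5 aldo-keto reductases and the 4 NRF2 regulators. The lines are apart for AKR1C1, AKR1C2, AKR1C3, AKR1C4, NFE2L2, KEAP1 and MAFG, and they overlap for AKR1B1 and BACH1.

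The other aldo-keto reductases did not share this pattern. AKR1B1, the aldose reductase that turns glucose into sorbitol, had 85.1, 90.2 and 95.7 CPM in 1CT and 79.7, 85.5 and 87.4 CPM in 1CT-A. The lines overlapped and its log2 fold change of -0.14 ± 0.08 was not called. AKR1B10, a retinal reductase often used as a readout of NRF2, had 10, 6 and 6 counts in 1CT and 9, 10 and 9 counts in 1CT-A, too few for the fit.

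The genes next to the AKR1C cluster on chromosome 10 are not among the 44 and were read from the same fit. Of the 20 tested neighbours, 10 on each side in annotated order, 7 were called higher and 4 lower, against 25.0% and 26.0% of all tested genes, with a median log2 fold change of 0.04 and a range from -0.91 to 1.25. The nearest tested gene on one side, the noncoding LINC00704, was lower with a log2 fold change of -0.65 ± 0.20 (edgeR, adjusted p = 0.0176). KLF6, a transcription factor gene and the next one on that side, was lower with -0.29 ± 0.06 (edgeR, adjusted p = 0.00206). NET1, the nearest on the other side, was higher with 0.64 ± 0.10 (edgeR, adjusted p = 0.000111). The value of 1.25 at the upper end of the range belongs to PRKCQ-AS1, the last of the 10 neighbours on the NET1 side. It had a mean of 0.857 CPM in 1CT and 2.11 CPM in 1CT-A. PRKCQ-AS1 was thus below AKR1C3, the AKR1C gene with the smallest fold, in log2 fold change.

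**Figure D3:**
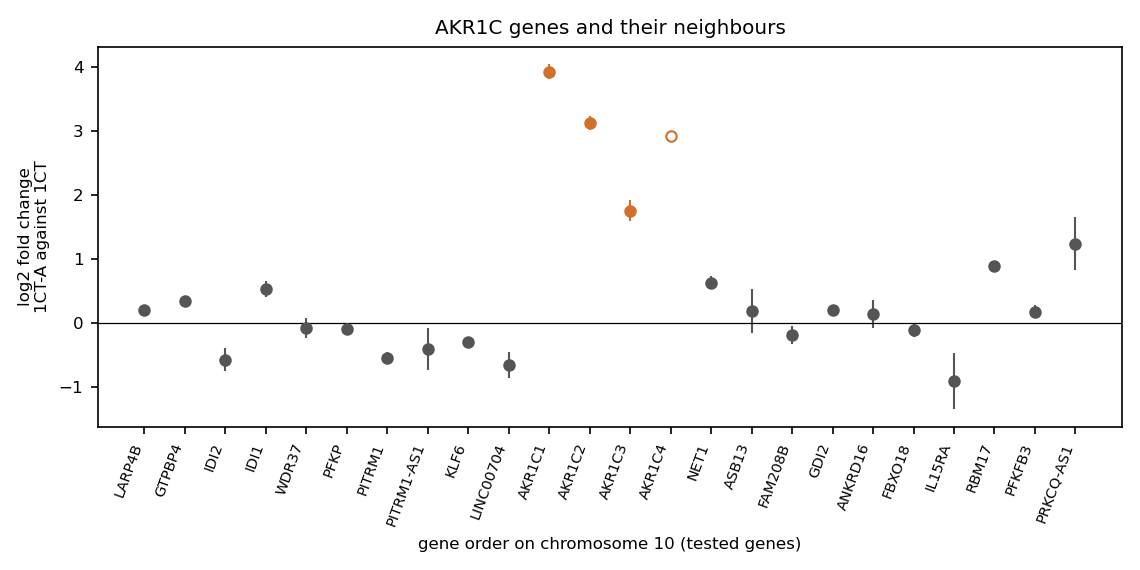
The y axis gives the log2 fold change, 1CT-A against 1CT (edgeR, bars are the standard error) for the tested genes on chromosome 10 in annotated order on the x axis. The AKR1C genes (orange, AKR1C4 open and at its lower bound) lie between 1.76 and 3.94, and the 20 neighbours (grey) lie between -0.91 and 1.25.

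Of the 6 genes that act on quinones, carbonyls and epoxides, 3 were called higher and 1 lower, against 25.0% and 26.0% of all tested genes. NQO1, the quinone reductase most used as a readout of NRF2, had 656, 477 and 557 CPM in 1CT and 659, 678 and 697 CPM in 1CT-A. All 1CT-A libraries lay above the 1CT libraries, and the log2 fold change of 0.23 ± 0.09 was not called. Its call changed with the processing: NQO1 was called in 7 of 13 alternatives, among them DESeq2 and limma-voom. Its log2 fold change was 0.35 without the first 1CT library and 0.12 without the second. PIR, pirin, an iron-binding nuclear protein that modulates NF-κB, had 6.03, 3.74 and 4.62 CPM in 1CT and 11.1, 11.0 and 10.6 CPM in 1CT-A, with a log2 fold change of 1.14 ± 0.18. UGDH, which makes the UDP-glucuronate used in conjugation, was also higher (137 to 179 CPM against 241 to 250 CPM, log2 fold change 0.63 ± 0.09), as was the carbonyl reductase CBR1 (0.35 ± 0.08). EPHX1, the microsomal epoxide hydrolase, was lower, with 8.57 to 11.7 CPM in 1CT against 6.11 to 7.26 CPM in 1CT-A (-0.69 ± 0.17). CBR3, a close relative of CBR1, overlapped between the lines at -0.28 ± 0.17.

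Glutathione is built from cysteine, which enters as cystine through SLC7A11, by the ligase of GCLC and GCLM. GCLC, the catalytic subunit, had 11.7, 13.6 and 14.4 CPM in 1CT and 11.7, 13.1 and 13.5 CPM in 1CT-A, with a log2 fold change of -0.09 ± 0.14 that was not called. GCLM, the modifier subunit that raises the activity of GCLC, had 101, 93.6 and 87.2 CPM in 1CT and 170, 168 and 165 CPM in 1CT-A, with 0.80 ± 0.07. The subunits of the same enzyme thus differed in pattern, with overlap of the lines in GCLC and a clear gap in GCLM. SLC7A11 had 177, 143 and 150 CPM in 1CT and 241, 235 and 221 CPM in 1CT-A, a log2 fold change of 0.53 ± 0.09. GSR, which reduces oxidised glutathione with NADPH, had 113 to 132 CPM in 1CT against 221 to 237 CPM in 1CT-A (0.88 ± 0.08). For SLC7A11, GCLM and GSR every 1CT-A library lay above every 1CT library, as for 31.8% of all tested genes.

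The enzymes that spend glutathione went both ways. MGST1, a membrane-bound transferase and peroxidase, had 454, 422 and 222 CPM in 1CT and 787, 918 and 855 CPM in 1CT-A. The third 1CT library lay far below the other two, and without it the log2 fold change of MGST1 went from 1.19 ± 0.18 to 0.94 ± 0.07. GSTP1, a cytosolic transferase, had 1307, 1168 and 1474 CPM in 1CT and 1127, 934 and 996 CPM in 1CT-A, and was lower with -0.41 ± 0.09. GSTM3 was lower as well, at 57.1 to 64.1 CPM in 1CT against 44.5 to 46.5 CPM in 1CT-A (-0.43 ± 0.08). For both genes all 1CT-A libraries lay below the 1CT libraries, as for 27.9% of all tested genes. GSTM1 overlapped at 1.77 to 2.78 CPM and 1.79 to 2.19 CPM, and 95.3% of the 50-base stretches at its 3′ end occur also in GSTM2, so its counts are uncertain. GPX2, the glutathione peroxidase of the gut epithelium, had 0 counts throughout 1CT and 0, 2 and 0 across 1CT-A, at or under the smallest visible level everywhere.

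In the thioredoxin system, which reduces protein disulfides with electrons from NADPH, 3 of 4 genes were called higher, against 25.0% of all tested genes. TXNRD1, the selenium-containing thioredoxin reductase, had 361, 288 and 229 CPM in 1CT and 377, 429 and 412 CPM in 1CT-A, with a log2 fold change of 0.43 ± 0.12. TXN, thioredoxin itself, had 338 to 566 CPM in 1CT against 653 to 788 CPM in 1CT-A (0.59 ± 0.14). The spread within 1CT was wide for both, with the third library lowest, and the highest 1CT library still lay below the lowest of 1CT-A. SRXN1, the sulfiredoxin that restores overoxidised peroxiredoxins, had 405, 349 and 341 CPM in 1CT and 510, 482 and 519 CPM in 1CT-A (0.42 ± 0.08). Of its 3′ end, 97.6% of the 50-base stretches lie also in another annotated gene, which has no symbol. PRDX1, a peroxiredoxin that removes hydrogen peroxide, had 2378 to 2608 CPM in 1CT against 2741 to 2881 CPM in 1CT-A. These ranges were apart, but the log2 fold change of 0.13 ± 0.06 was not called.

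All 5 listed genes of NADPH supply or the pentose phosphate pathway were called higher, against 25.0% of all tested genes. In all 5 every 1CT-A library lay above every 1CT library, as for 31.8% of all tested genes. TKT, the transketolase of the pentose phosphate pathway, had 427, 399 and 427 CPM in 1CT and 744, 625 and 717 CPM in 1CT-A, with a log2 fold change of 0.70 ± 0.08. IDH1, the cytosolic isocitrate dehydrogenase, stood at 0.70 ± 0.10 and the malic enzyme ME1 at 0.51 ± 0.10. PGD, which makes NADPH in the pentose phosphate pathway, stood at 0.46 ± 0.10, and TALDO1, the transaldolase that works beside TKT, at 0.40 ± 0.07. The 5 log2 fold changes thus spanned 0.40 to 0.70.

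Heme and iron genes were split. HMOX1, the heme oxygenase that releases iron, carbon monoxide and biliverdin, had 105, 85.2 and 113 CPM in 1CT and 208, 154 and 181 CPM in 1CT-A, with a log2 fold change of 0.80 ± 0.12 and no overlap. FTH1 and FTL, the heavy and light ferritin chains that store the iron, both overlapped. FTH1 had 2318 to 2770 CPM in 1CT against 2590 to 2822 CPM in 1CT-A (0.02 ± 0.07), and FTL had 996 to 1189 CPM and 1062 to 1151 CPM (-0.05 ± 0.08). The sign of either ferritin value turned when single libraries were left out. Of the 50-base stretches at their 3′ ends, 19.5% for FTH1 and 19.7% for FTL occur in other annotated genes, chiefly pseudogenes.

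Of the 3 exporters of glutathione and glucuronide conjugates, 2 were tested. Of these, 0 were called higher and 1 lower, against 25.0% and 26.0% of all tested genes, and nothing is read from so few genes. ABCC3 had 25.9, 30.3 and 36.3 CPM in 1CT and 13.2, 15.8 and 14.4 CPM in 1CT-A, a log2 fold change of -1.13 ± 0.14. Its 1CT-A libraries all lay below the lowest 1CT library, at a level 2.19-fold lower. ABCC1 overlapped at 26.7 to 36.6 CPM and 28.3 to 33.8 CPM (-0.14 ± 0.12). ABCC2 had 1, 1 and 3 counts in 1CT and 2, 5 and 2 counts in 1CT-A, too few for the fit.

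The remaining targets act in protein turnover and growth. SQSTM1 encodes p62, an autophagy receptor that binds KEAP1 and so protects NRF2, and it is itself an NRF2 target. It had 449, 403 and 469 CPM in 1CT and 211, 228 and 202 CPM in 1CT-A, with a log2 fold change of -1.08 ± 0.08, opposite in sign to NFE2L2. TRIM16, a ubiquitin ligase with a known link to NRF2 and p62, had 11.4, 12.1 and 15.4 CPM in 1CT and 33.2, 31.9 and 30.0 CPM in 1CT-A (1.25 ± 0.13). Its close copy TRIM16L had 10.1, 8.69 and 10.8 CPM in 1CT and 27.8, 28.4 and 29.0 CPM in 1CT-A (1.49 ± 0.12). For both, every 1CT-A library lay above every 1CT library, as for 31.8% of all tested genes. Their annotated transcripts, however, were identical at 98.7% of aligned positions. They shared 34.8% (TRIM16) and 52.1% (TRIM16L) of the stretches at their 3′ ends, so reads could have been divided between them. Added together as 1 gene they stood at 1.36 ± 0.10. OSGIN1, an oxidative stress growth inhibitor, had 8.52 to 11.8 CPM in 1CT against 11.2 to 11.7 CPM in 1CT-A and was not called (0.14 ± 0.15).

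**Figure D4:**
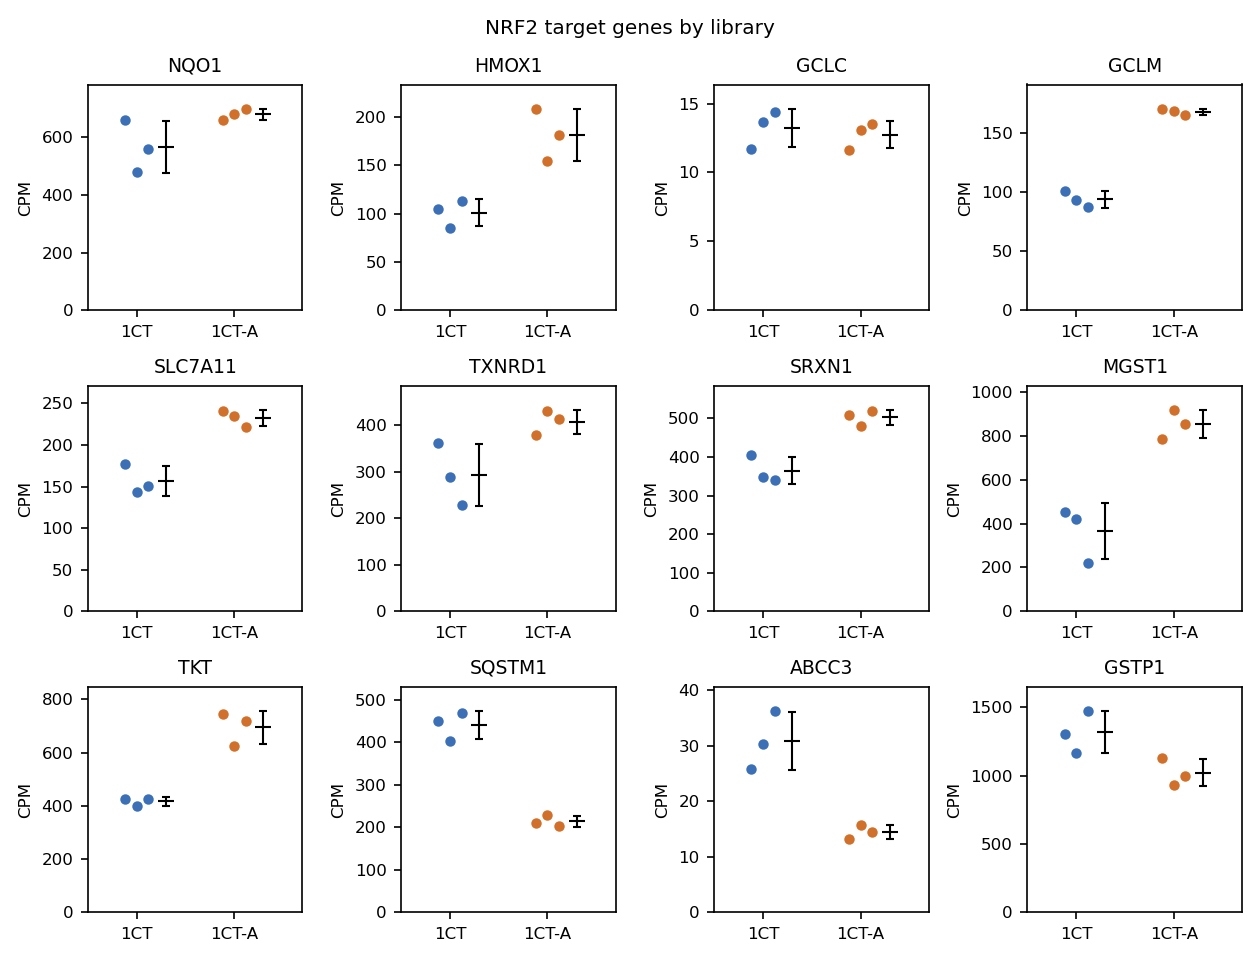
CPM on the y axis for each library (points) with mean and SD (bars) for 12 target genes, 3 libraries of 1CT and 3 of 1CT-A. HMOX1, GCLM, SLC7A11, TXNRD1, SRXN1, MGST1 and TKT are higher in 1CT-A without overlap, SQSTM1, ABCC3 and GSTP1 are lower, GCLC overlaps, and in NQO1 the highest 1CT library at 656 CPM nearly meets the lowest 1CT-A library at 659 CPM.

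The 1CT libraries varied more among themselves than the 1CT-A libraries. Over the 35 of the 44 that reached a mean of 10 CPM, the median coefficient of variation was 11.6% in 1CT and 4.76% in 1CT-A. Over all 8224 genes at that level the medians were 8.73% and 5.79%. The 1CT libraries also had the lower count totals, and the part of counting noise in this difference was not tested. Which 1CT library was lowest varied by gene: the first for 6, the second for 15 and the third for 14 of the 35. The summed level of the 44 genes was 13075, 11363 and 12115 CPM in 1CT and 14831, 15085 and 14954 CPM in 1CT-A. No library was a copy of another: the chi-square of the counts of any replicate pair was at least 3.11 per degree of freedom, and it was highest between the second and the third 1CT library.

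Genes of the same pathways outside the 44 were taken from lists that were also drawn up with earlier results of these data known. Over 8 such lists, the shares called are to be read beside the 25.0% of all tested genes called higher and the 26.0% called lower. Among 23 tested of 30 other targets listed for NRF2, 6 rose and 4 fell, with a median log2 fold change of -0.10. LRP8, a lipoprotein receptor, rose from a mean of 63.7 to 117 CPM (log2 fold change 0.84 ± 0.08, edgeR, adjusted p = 1.27e-06), and NAMPT, which makes the NAD precursor, rose by 0.83 ± 0.11 (edgeR, adjusted p = 5.56e-05). GLRX, glutaredoxin, fell from a mean of 128 to 61.6 CPM (-1.09 ± 0.17, edgeR, adjusted p = 0.000176), and BLVRA, which turns the biliverdin from heme into bilirubin, fell from 43.0 to 26.1 CPM (-0.76 ± 0.09, edgeR, adjusted p = 1.48e-05).

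Of 13 tested among 15 further genes of NRF2 regulation, 4 rose and 6 fell (median 0.12). PGAM5, a mitochondrial phosphatase that binds KEAP1, rose by 0.76 ± 0.09 (edgeR, adjusted p = 1.10e-05), and CAND1, which exchanges the adaptors of cullin ligases, rose by 0.42 ± 0.08 (edgeR, adjusted p = 0.00102). The other small MAF genes MAFK and MAFF went the opposite way to MAFG: MAFK fell from 25.3 to 10.6 CPM (-1.29 ± 0.17, edgeR, adjusted p = 4.26e-05) and MAFF from 26.0 to 18.4 CPM (-0.54 ± 0.14, edgeR, adjusted p = 0.00649). Among 24 other antioxidant enzymes, all tested, 6 rose and 12 fell (median -0.25). PRDX3, the mitochondrial peroxiredoxin, rose by 0.53 ± 0.12 (edgeR, adjusted p = 0.00318) and MSRB1, a methionine sulfoxide reductase, by 0.46 ± 0.11 (edgeR, adjusted p = 0.00299), while PON2, a lactonase, fell from 72.0 to 41.6 CPM (-0.83 ± 0.09, edgeR, adjusted p = 6.30e-06) and PRDX5 from 30.5 to 21.3 CPM (-0.56 ± 0.11, edgeR, adjusted p = 0.000959).

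Of 18 tested among 22 other glutathione genes, 2 rose and 8 fell (median -0.21). GGCT, which cleaves gamma-glutamyl amino acids, rose from 135 to 198 CPM (0.52 ± 0.07, edgeR, adjusted p = 3.59e-05). MGST2, a relative of MGST1, fell from 42.4 to 17.2 CPM (-1.33 ± 0.11, edgeR, adjusted p = 7.94e-07), and GSS, which completes glutathione after the GCLC step, fell from 97.7 to 63.0 CPM (-0.67 ± 0.10, edgeR, adjusted p = 9.76e-05). Of 14 other NADPH and pentose phosphate genes, all tested, 4 rose and 1 fell (median 0.15). RPIA, the ribose phosphate isomerase, rose from 21.5 to 41.2 CPM (0.90 ± 0.09, edgeR, adjusted p = 3.41e-06) and MTHFD2, the mitochondrial folate dehydrogenase, by 0.63 ± 0.11 (edgeR, adjusted p = 0.000365), while H6PD, an enzyme of the endoplasmic reticulum that makes NADPH, fell by 0.70 (standard error 0.13, edgeR, adjusted p = 0.000705) on the log2 scale.

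Of 16 tested among 22 other aldo-keto and carbonyl reductases, 6 rose and 4 fell (median 0.02). PTGR1, a prostaglandin and leukotriene reductase, rose from 135 to 232 CPM (0.74 ± 0.08, edgeR, adjusted p = 6.38e-06), and HSD17B10, a mitochondrial steroid dehydrogenase, rose by 0.62 ± 0.11 (edgeR, adjusted p = 0.000461). The largest changes of this list were in genes with a mean under 10 CPM over the 6 libraries, named after their values were seen: DHRS2, a dehydrogenase of the short-chain family, fell from 13.7 to 0.624 CPM (-4.46 ± 0.25, edgeR, adjusted p = 2.09e-08), and HSD17B2, which inactivates estradiol and testosterone, rose from 2.89 to 13.7 CPM (2.20 ± 0.26, edgeR, adjusted p = 1.29e-05). Of 15 tested among 17 other iron and heme genes, 6 rose and 4 fell (median 0.25). TFRC, the transferrin receptor, rose from 92.3 to 149 CPM (0.65 ± 0.08, edgeR, adjusted p = 2.07e-05) and PCBP1, an iron chaperone, by 0.60 ± 0.09 (edgeR, adjusted p = 0.00017), while HMOX2, the constitutive heme oxygenase, fell from 37.1 to 26.8 CPM (-0.51 ± 0.11, edgeR, adjusted p = 0.00218). ATF4 also drives SLC7A11, and of 15 tested among 16 genes of ATF4 and its targets 5 rose and 2 fell (median 0.09). PSAT1, of serine synthesis, rose from 27.5 to 56.4 CPM (1.00 ± 0.10, edgeR, adjusted p = 4.22e-06) and CEBPB, a transcription factor, by 0.65 ± 0.09 (edgeR, adjusted p = 3.58e-05), while SLC7A5 fell by 0.30 (standard error 0.08, edgeR, adjusted p = 0.00802) and NUPR1 by 0.28 (standard error 0.10, edgeR, adjusted p = 0.0255) on the log2 scale. Across the lists other than that of ATF4, 121 of 142 different genes were tested, of which 34 were called higher and 38 lower, with a median of -0.09.

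**Figure D5:**
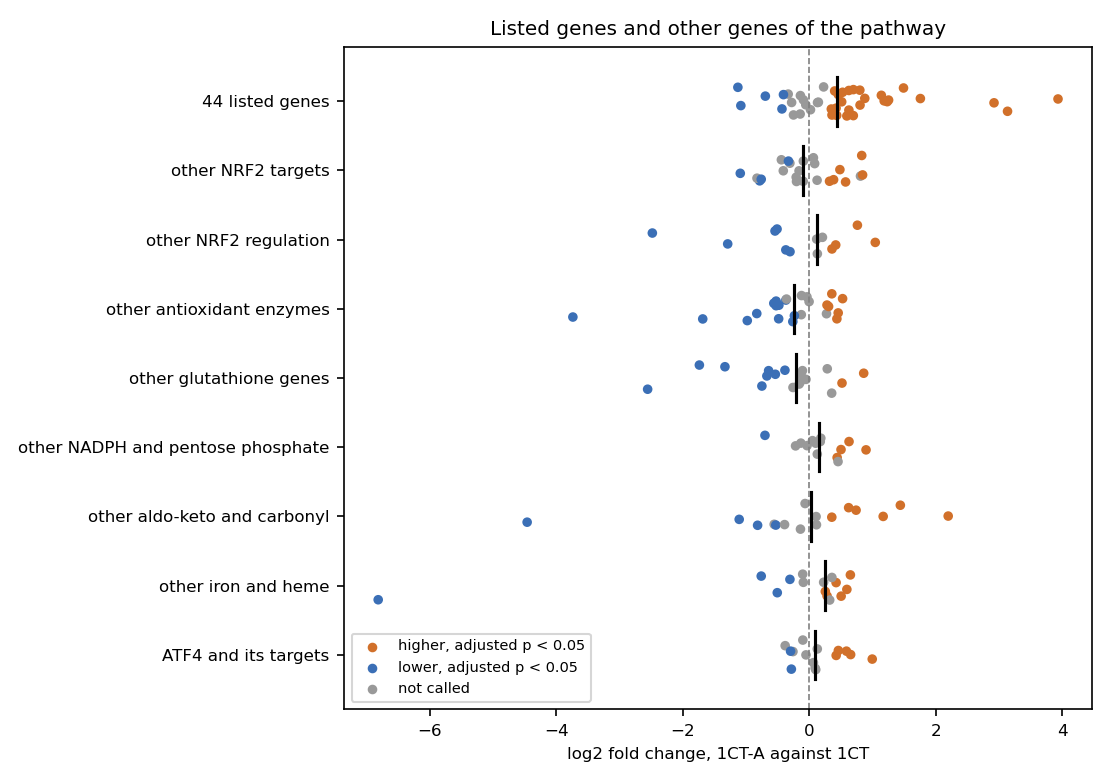
The x axis gives the log2 fold change, 1CT-A against 1CT (edgeR) for the tested genes of each list on the y axis, coloured by call, with the median of each list as a black bar and that of all tested genes as a dashed line. The median of the 41 tested among the 44 genes is 0.43 and the medians of the other lists lie between -0.25 and 0.25. AKR1C4 is drawn at its lower bound, and the fitted values of TFR2 and GPX3, at or under 3 counts in each 1CT-A library, are no bounds.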

How the data were processed

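RNA of 3 1CT and 3 1CT-A libraries was sequenced from 500 ng of total RNA per library with the QuantSeq 3′ kit. The authors deposited raw counts per gene symbol, 1 file per library. The submitters' processing notes name Bowtie2, edgeR and the build hg19, so gene positions are not given. Each file had 25737 rows, and rows of 286 repeated symbols were summed to 24462 symbols. CPM were computed from each file's total. The counts were fitted with edgeR 4.0.16 in R 4.3.3 (TMM, filterByExpr with a minimum count of 10, quasi-likelihood test, Benjamini-Hochberg adjustment). The procedure was also run on simulated counts in which few genes changed, with as many rises as falls. In the data 6388 of 12514 genes were called, and 2-fold falls outnumbered 2-fold rises. The simulated run therefore cannot give the error rate for these data. The 44 genes and all lists were chosen with earlier results of these data known. From each other list were named, among called genes averaging 10 CPM or more, the 2 largest rises and the 2 largest falls (1 further gene is not reported here); neighbours, single markers, DHRS2, HSD17B2, TFR2 and GPX3 were named after their values were seen. No source names separate cultures, so p-values measure the spread between these libraries, which may be technical. The standard errors were derived from the same quasi-likelihood test, and the lower bound for AKR1C4 has no interval. Alternatives were DESeq2 1.42.0 and its size factors, limma-voom (limma 3.58.1), library size only, other filters, a replicate block, other thresholds, each library left out, and added counts of close copies. Protein identity was planned, and transcripts were compared instead (Biopython 1.88). Figures were drawn with matplotlib 3.10.9.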

Additional observations from a re-analysis of the deposited data

How the results depend on the processing

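Of 538 values of single genes among the 44 under the alternatives, 524 kept their sign and their side of the threshold, 11 were newly called (NQO1 7 times, PRDX1 3 times and ABCC1 once), none lost its call and 3 changed sign. The sign changes were in the ferritins, which were not called: FTH1 went to -0.052 without the second 1CT library and to -0.0072 without the second 1CT-A library (range with single libraries left out -0.052 to 0.071), and FTL to 0.0053 without the third 1CT library (range -0.134 to 0.0053). The median over those of the 44 genes that were tested lay between 0.39 and 0.50. That of all tested genes was 0.03 with library size only and -0.10 without a filter. The numbers of the libraries did not pair them, with correlations of same-numbered deviations of -0.161, 0.22 and -0.139 across 8224 genes, and 1 cross-numbered pair reached 0.345. Under a replicate block 6091 genes were called in place of 6388, and 26 of the 41 tested genes of the list were higher and 5 lower. Beside NQO1, which was then called, no single gene of the 41 changed its call.

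Thresholds moved counts most. At 2-fold or more and an unadjusted p under 0.01, 9 of the 41 tested genes of the list were higher and 2 lower. By that rule the other NRF2 targets gave 0 higher and 1 lower, NRF2 regulation 0 and 2, antioxidant enzymes 0 and 2, glutathione genes 0 and 3, NADPH genes 0 and 0, aldo-keto and carbonyl reductases 1 and 2, iron and heme genes 0 and 1, and ATF4 and its targets 0 and 0. Of all 12514 tested genes, 510 were at least 2-fold higher and 1266 at least 2-fold lower, without a limit on p. For this rule and the stricter one below, the share of all tested genes was not counted, so nothing is read from these counts. At an adjusted p under 0.01, 1 glutathione gene was higher, 3 aldo-keto and carbonyl reductases were higher and 2 lower, and 1 ATF4 target was lower. DESeq2 gave 1 higher glutathione gene and 2 lower aldo-keto and carbonyl reductases. With each library left out in turn, higher glutathione genes ranged from 1 to 3 (1 without the third 1CT library), lower aldo-keto and carbonyl reductases from 2 to 4 (2 without 1CT library 1 or 1CT-A library 1 or 3), and lower ATF4 targets from 0 to 2 (0 without the third 1CT-A library, 1 without 1CT library 2 or 3 or 1CT-A library 2). The cause was not tested beyond what fewer libraries or a stricter rule bring by construction. Depth limits AKR1C4, AKR1B10, GPX2 and ABCC2, which had few or no counts in at least one line.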
